A study of Mus musculus with 13 samples.

Results

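The cornified envelope genes were taken from the gene counts of mouse skin as every gene whose symbol starts with Sprr or Lce, together with *Flg*, *Flg2*, *Hrnr*, *Rptn*, *Lor*, *Ivl*, *Crnn*, *Crct1*, *Kprp* and *Smcp*. The rule uses names only and found 48 of the 49315 genes in the files. All 48 lie on mouse chromosome 3, between positions 92080271 and 93399442 of GRCm38, in the cluster known as the epidermal differentiation complex. They comprise 2 *Sprr1*, 13 *Sprr2*, 14 *Lce1* and 6 *Lce3* genes, *Sprr3*, *Sprr4*, *Lce6a*, 5 genes of the S100-fused family (*Crnn*, *Flg2*, *Flg*, *Hrnr* and *Rptn*) and 5 others (*Lor*, *Ivl*, *Kprp*, *Crct1* and *Smcp*).

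The cornified envelope is the protein shell that replaces the plasma membrane of a keratinocyte as it becomes a dead, flattened cell of the skin surface. Involucrin and the small proline-rich (SPRR) proteins, loricrin and the late cornified envelope (LCE) proteins are joined to each other by transglutaminases, and filaggrin, released from a granule protein, gathers keratin filaments beneath the shell. Several *Sprr* genes are also known to be induced in skin after a wound or a barrier defect.

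Full-thickness back skin was taken at postnatal day 4 (P4) from 3 wild-type (WT) mice and from 3 littermates labelled DKO, of genotype K14Cre+Kctd1fl/flKctd15fl/fl, with 1 library per mouse. The alleles of the WT mice are not described further in the labels, and which mice share a litter is not given. In the DKO mice a Cre recombinase driven by the keratin 14 promoter removes floxed parts of *Kctd1* and *Kctd15* in basal keratinocytes and their descendants, so the dermis, fat and muscle of the same skin pieces keep both genes. *Kctd1* and *Kctd15* encode related BTB domain proteins that bind the transcription factor AP-2α. The comparison asks how the loss of both genes in keratinocytes alters skin transcripts.

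The coding sequences of the 3 *Sprr* genes with the largest differences are shown first, since their centre is a tandem repeat that codes for proline-rich units. They were read from the GENCODE M21 transcripts, and capitals mark codons that belong to a tandem repeat, defined as a window of 27 bases (*Sprr2*) or 24 bases (*Sprr1b*) that matches the next such window at 20 or more bases.
Sprr2a3 coding bases 1 to 252, GRCm38 chr3:92288588-92288839, strand +: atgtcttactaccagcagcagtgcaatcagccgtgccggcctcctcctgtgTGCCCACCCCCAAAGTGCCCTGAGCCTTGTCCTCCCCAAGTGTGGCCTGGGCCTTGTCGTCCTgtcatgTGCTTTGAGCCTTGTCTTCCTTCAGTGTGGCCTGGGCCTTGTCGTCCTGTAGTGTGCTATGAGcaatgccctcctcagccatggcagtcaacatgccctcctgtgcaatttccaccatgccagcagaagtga
Sprr2h coding bases 37 to 327, GRCm38 chr3:92386668-92386958, strand +: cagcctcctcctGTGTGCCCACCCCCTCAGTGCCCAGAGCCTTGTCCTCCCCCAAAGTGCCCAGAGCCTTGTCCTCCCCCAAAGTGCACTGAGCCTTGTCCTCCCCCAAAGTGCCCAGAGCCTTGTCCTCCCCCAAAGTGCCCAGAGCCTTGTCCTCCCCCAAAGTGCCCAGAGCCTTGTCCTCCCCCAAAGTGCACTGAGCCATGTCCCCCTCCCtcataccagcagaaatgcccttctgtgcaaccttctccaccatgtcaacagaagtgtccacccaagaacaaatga
Sprr1b coding bases 106 to 405, GRCm38 chr3:92437163-92437462, strand -: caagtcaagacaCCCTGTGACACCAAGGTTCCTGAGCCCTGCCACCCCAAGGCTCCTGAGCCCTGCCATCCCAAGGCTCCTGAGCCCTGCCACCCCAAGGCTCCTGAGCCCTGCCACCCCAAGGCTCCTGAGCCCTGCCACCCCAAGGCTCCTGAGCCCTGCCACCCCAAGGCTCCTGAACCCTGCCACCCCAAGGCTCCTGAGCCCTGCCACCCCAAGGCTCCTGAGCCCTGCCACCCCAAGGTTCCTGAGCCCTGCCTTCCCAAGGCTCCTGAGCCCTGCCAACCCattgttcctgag

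Repeats took 126 of the 252 coding bases of *Sprr2a3*, 204 of 327 in *Sprr2h* and 276 of 462 in *Sprr1b*. The coding sequence of *Sprr2a3* was 98.8% identical to that of *Sprr2a1*, which was 100% identical to that of *Sprr2a2*. Over all pairs of *Sprr2* genes the median identity was 66.8%, against 83.5% among *Lce1* genes and 97.6% among *Lce3* genes. Of the 150-base windows of their transcripts, 89.6% of those of *Sprr2a1*, 89.0% of those of *Sprr2a2* and 19.0% of those of *Sprr2a3* also occur in another gene of the complex. Among *Lce3* genes the share was 15.1% for *Lce3c*, 3.22% for *Lce3d*, 29.5% for *Lce3e*, 36.8% for *Lce3f* and 0% for *Lce3a* and *Lce3b*. It was also 0% for *Sprr2h*, *Sprr1b* and each *Lce1* gene. Counts of the *Sprr2a* trio and of *Lce3c*, *Lce3d*, *Lce3e* and *Lce3f* are therefore uncertain between paralogs.

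Promoters were compared because neighbouring genes of 1 family had fold changes in the same direction. RefSeq promoters (GRCm38.p6) were found for 42 of the 48 genes, and the 250 bases before the start site were searched. Capitals mark the AP-1 motif TGANTCA on either strand, the forward letters TATAAA or ATAAAAG, and, in *Lce1* genes, the longest run of letters that at least 8 of their 13 promoters share.
Sprr2h promoter, GRCm38.p6 chr3:92385435-92385684, strand +: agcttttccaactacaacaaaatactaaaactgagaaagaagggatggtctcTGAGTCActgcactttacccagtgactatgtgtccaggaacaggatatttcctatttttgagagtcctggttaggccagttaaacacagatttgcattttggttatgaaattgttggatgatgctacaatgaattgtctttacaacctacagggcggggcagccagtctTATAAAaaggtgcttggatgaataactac
Sprr1b promoter, GRCm38.p6 chr3:92438780-92439029, strand -: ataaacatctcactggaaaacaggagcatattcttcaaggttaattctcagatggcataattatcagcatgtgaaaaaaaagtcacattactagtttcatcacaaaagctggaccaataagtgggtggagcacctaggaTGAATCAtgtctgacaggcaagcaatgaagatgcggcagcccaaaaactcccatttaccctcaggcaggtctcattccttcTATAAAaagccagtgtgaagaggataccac
Sprr1a promoter, GRCm38.p6 chr3:92485882-92486131, strand -: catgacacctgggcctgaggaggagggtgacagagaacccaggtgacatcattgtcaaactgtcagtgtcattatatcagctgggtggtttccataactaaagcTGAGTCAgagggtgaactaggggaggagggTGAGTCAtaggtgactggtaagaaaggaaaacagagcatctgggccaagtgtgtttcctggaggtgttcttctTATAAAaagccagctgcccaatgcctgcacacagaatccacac
Lce1e promoter, GRCm38.p6 chr3:92709075-92709324, strand -: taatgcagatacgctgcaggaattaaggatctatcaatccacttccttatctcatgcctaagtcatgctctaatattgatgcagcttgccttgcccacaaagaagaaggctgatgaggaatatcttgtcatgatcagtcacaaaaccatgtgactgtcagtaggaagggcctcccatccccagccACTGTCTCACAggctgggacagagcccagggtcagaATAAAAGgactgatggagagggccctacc
Lce1j promoter, GRCm38.p6 chr3:92790515-92790764, strand -: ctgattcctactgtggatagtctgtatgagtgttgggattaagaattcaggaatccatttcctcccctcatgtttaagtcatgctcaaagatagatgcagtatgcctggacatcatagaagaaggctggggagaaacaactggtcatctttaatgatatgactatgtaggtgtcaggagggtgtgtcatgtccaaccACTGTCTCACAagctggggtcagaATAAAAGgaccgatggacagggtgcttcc
Lce3c promoter, GRCm38.p6 chr3:92944236-92944485, strand +: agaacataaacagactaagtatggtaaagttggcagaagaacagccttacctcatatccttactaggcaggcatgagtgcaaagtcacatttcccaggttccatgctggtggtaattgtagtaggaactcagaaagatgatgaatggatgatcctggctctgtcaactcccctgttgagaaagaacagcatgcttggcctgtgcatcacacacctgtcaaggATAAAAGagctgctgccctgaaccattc

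TGANTCA was present in 15 of the 42 promoters (35.7%) and in 6.75% of all 32851 RefSeq promoters over the same bases. It occurred in 7 of 10 *Sprr2* promoters, starting between 198 and 193 bases before the start site in each of them, with a further match 182 bases before it in *Sprr2k*, in both *Sprr1* promoters, and in 0 of 13 *Lce1* and 0 of 6 *Lce3* promoters. The letters TATAAA were found in 18 of the 42 promoters, against 7.59% of all promoters, and in 2 of the 13 of *Lce1*. ATAAAAG, searched after the *Lce1* promoters had been read, was found in 10 of 13 *Lce1* and 5 of 6 *Lce3* promoters, against 3.01% of all, and overlaps TATAAA in *Lce1d*, *Lce1m* and *Crnn*. The run shared by 8 *Lce1* promoters, ACTGTCTCACA, was found in 11 of the 32851 promoters, these 8 among them. As it was picked from these promoters, the count over all promoters is no test of it. The motif of AP-2 (GCCNNNGGC) was found in 1 of the 42 promoters, that of *Lce3b*, against 13.7% of all, the Klf motif CACCC in 17, against 52.0% of all, and the Grhl motif AACCGGTT in 0, against 0.116% of all. These are matches of letters and do not show that a factor binds there.

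The 6 libraries held 11263863 to 17643043 counts on genes, and the cornified envelope genes took 0.421% to 0.560% of them. A count of 3, used as the floor, corresponds to 0.17 to 0.266 CPM, the count scaled to a common library size, and limits of this kind cover counting error only. *Kctd15*, the first targeted gene, had normalized counts of 736, 737 and 763 in WT and 1131, 1509 and 1325 in DKO skin. *Kctd1*, the second, had 443, 410 and 442 in WT and 506, 985 and 735 in DKO skin. All DKO values of both genes lay above all WT values, and a count over the whole gene does not show whether the floxed part was lost. The paper reports that RNA-Seq showed removal of the targeted exons of both genes, also in mice of the DKO genotype. It does not say whether these libraries were used for that. A normalized count here is a count scaled by edgeR's TMM method to the mean library size.

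Of the 48 genes, 31 had enough counts for a test, and each of the 31 had at least 18 counts in every library. Their log2 fold changes of DKO against WT had a median of 0.55, against 0.02 over the 20168 genes tested, and 24 were above 0 and 7 below, where 52.9% of all tested genes were above 0. By edgeR's quasi-likelihood test, 0 of them passed the thresholds of the study, which are an adjusted p under 0.05 and a log2 fold change beyond 1 in either direction. Of all tested genes 0.0694% passed, 0.0397% as higher and 0.0298% as lower in DKO skin. At an unadjusted p under 0.05, 18 were higher in DKO skin and 2 lower, against 4.96% and 2.54% of all tested genes. All 3 DKO values lay above all 3 WT values in 18 of the 31 genes and below them in 2, against 7.24% and 5.96%. DESeq2, which the study used, passed 4 of them with the same thresholds, *Sprr2a3*, *Sprr2h*, *Sprr1b* and *Lce3c*, all higher in DKO skin. Over 19663 genes DESeq2 passed 0.783%, with 0.498% as higher. The 3 mice of a group could give no exact permutation p under 0.1, so single genes rest on these model fits.

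**Figure D1:**
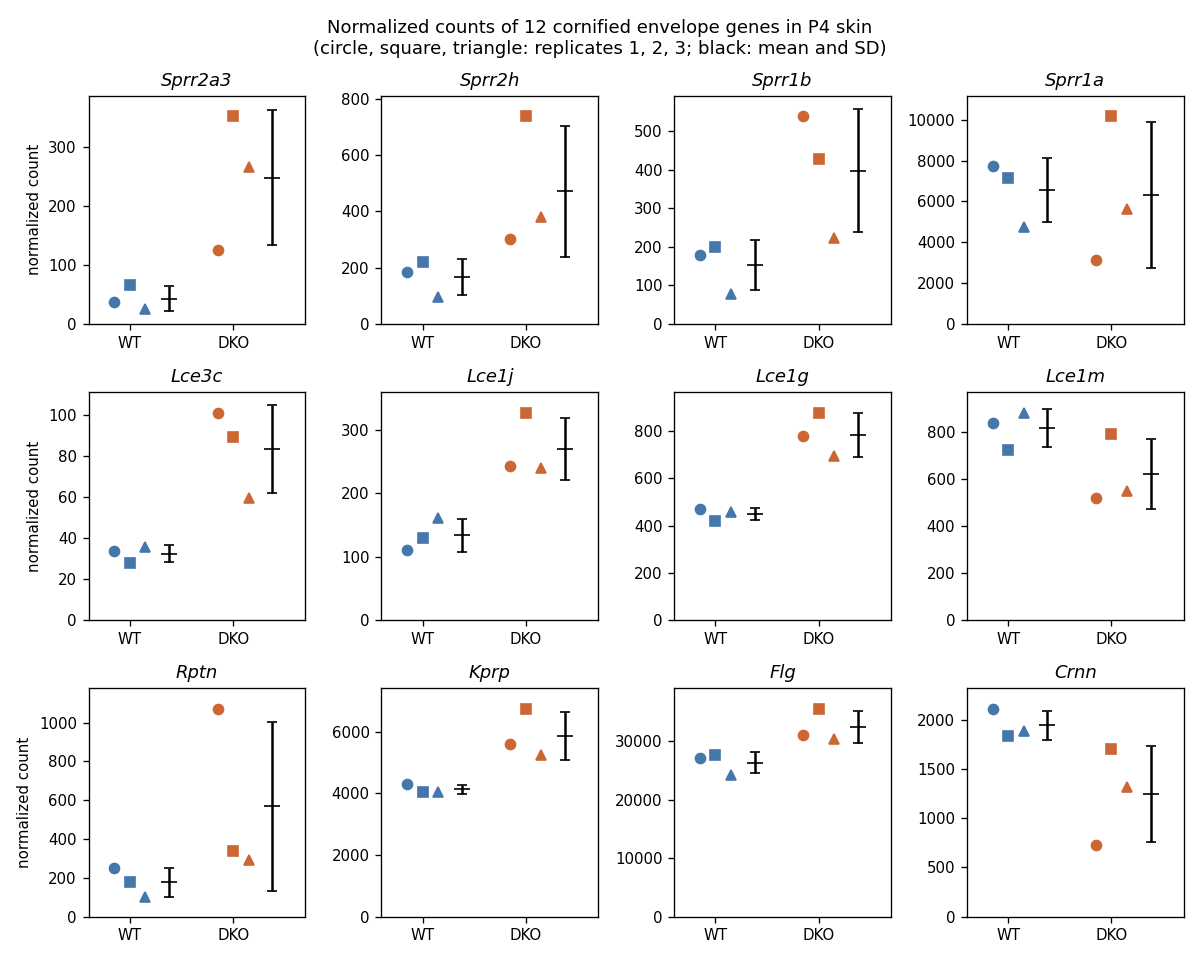
Normalized counts (vertical axes, from 0) of 12 cornified envelope genes in each WT (blue) and DKO (orange) library, with the mean and SD in black. The DKO points of *Sprr2a3*, *Sprr2h*, *Sprr1b*, *Lce3c*, *Lce1j*, *Lce1g*, *Rptn*, *Kprp* and *Flg* all sit above the WT points, those of *Crnn* all sit below, and those of *Sprr1a* and *Lce1m* overlap with WT.

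*Sprr2* genes encode small envelope proteins that are linked between the larger ones. *Sprr2a3* had normalized counts of 36.7, 66.2 and 24.8 in WT skin and 125, 351 and 266 in DKO skin. The lowest DKO value was above the highest WT value. This was the largest difference among the 31 genes, a log2 fold change of 2.53 ± 0.43 (SE) or 5.79-fold (edgeR adjusted p = 0.107, DESeq2 adjusted p = 2.17e-07). Without DKO replicate 1, *Sprr2a3* passed in edgeR as well, at 2.83 (adjusted p = 0.0027). Summed with its near-identical copies *Sprr2a1* and *Sprr2a2*, so that the split of reads between them plays no part, although reads discarded as ambiguous would still be missing, the level was 2.48, 5.03 and 1.69 CPM in WT and 8.83, 24.3 and 19.2 CPM in DKO skin. The sum did not overlap between the groups either. The counted exons of *Sprr2a1* and *Sprr2a2* share 43 bases.

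*Sprr2h* was the *Sprr2* gene with the highest level per length. It had normalized counts of 187, 220 and 96.7 in WT skin and 301, 737 and 378 in DKO skin. The groups did not overlap, and DKO replicate 2 was well above the other 2 DKO mice. Its log2 fold change was 1.495 ± 0.37 (edgeR adjusted p = 0.281, DESeq2 adjusted p = 0.00405). The other 11 *Sprr2* genes were below the filter on low counts. *Sprr2d*, for example, had raw counts of 6, 3 and 7 in WT and 14, 10 and 2 in DKO libraries, and *Sprr2f* had 7, 7 and 5 in WT and 2, 3 and 0 in DKO libraries. The pseudogene *Sprr2c-ps* had a count of 0 in all 6 libraries. The summed level of the 13 *Sprr2* genes was 15.3 ± 5.81 CPM in WT and 50.3 ± 21.8 CPM in DKO skin (SD, n = 3), and its DKO values lay above its WT values.

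The *Sprr1* pair, whose proteins bridge other envelope proteins in the same way, held 1 gene above WT and 1 that overlapped. *Sprr1b* had normalized counts of 178, 200 and 78.7 in WT skin and 538, 428 and 224 in DKO skin. All DKO values were above all WT values, and the log2 fold change was 1.38 ± 0.38 (edgeR adjusted p = 0.341, DESeq2 adjusted p = 0.0155). *Sprr1a* had 7721, 7169 and 4762 in WT and 3138, 10160 and 5614 in DKO skin. Its DKO values spread from below to above those of WT, with a log2 fold change of -0.05 ± 0.36 (edgeR adjusted p = 0.986). Since *Sprr1a* carried most of the family's counts, the summed level of the pair, 442 ± 108 CPM in WT and 442 ± 233 CPM in DKO skin, overlapped as well. The difference between the fold changes of the 2 genes was not tested.

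*Sprr4*, another small proline-rich gene, varied widely within WT skin. It had normalized counts of 1088, 1124 and 306 in WT and 489, 1524 and 972 in DKO skin. The groups overlapped, and the log2 fold change was 0.25 ± 0.48 (edgeR adjusted p = 0.961). *Sprr3*, which is known from the lining of the esophagus and mouth, had a count of 0 in each library, below the 3-count floor of 0.266 CPM in the shallowest one.

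The *Lce1* genes, which encode cysteine-rich proteins added late to the envelope, mostly had higher counts in DKO skin, but 0 of the 14 passed in edgeR or DESeq2. All 14 were tested, and 13 had a log2 fold change above 0, against 52.9% of all tested genes. At an unadjusted p under 0.05, 12 were higher, against 4.96% of all, and 0 were lower. The DKO values of 10 lay wholly above WT, against 7.24% of all. Their median log2 fold change was 0.62. The summed level of the family was 482, 448 and 546 CPM in WT and 610, 894 and 603 CPM in DKO skin. The groups did not overlap, although DKO replicates 1 and 3 were much nearer to WT than replicate 2 was.

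*Lce1g* had the smallest SE of a fold change among the *Lce1* genes. It had normalized counts of 469, 419 and 456 in WT and 778, 878 and 693 in DKO skin. Its groups lay far apart for their spread, and its log2 fold change of 0.81 ± 0.14 was under the threshold for size (edgeR adjusted p = 0.127, DESeq2 adjusted p = 0.00141). *Lce1j* had 110, 130 and 161 in WT and 242, 327 and 240 in DKO skin. Again no value overlapped, and the log2 fold change was 1.01 ± 0.21 (edgeR adjusted p = 0.202, DESeq2 adjusted p = 0.00574). DESeq2 estimated the fold change of *Lce1j* at just under 1 on the log2 scale and so did not pass it.

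*Lce1e*, whose promoter is shown above, had normalized counts of 164, 144 and 185 in WT and 300, 436 and 226 in DKO skin. It did not overlap between the groups, with a log2 fold change of 0.96 ± 0.24 (edgeR adjusted p = 0.281, DESeq2 adjusted p = 0.0301). *Lce1h* had 238, 253 and 280 in WT and 376, 563 and 383 in DKO skin, with a log2 fold change of 0.78 ± 0.19 (edgeR adjusted p = 0.269, DESeq2 adjusted p = 0.0409). It did not overlap either.

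*Lce1c*, the *Lce1* gene with the highest level per length, had normalized counts of 1111, 1033 and 1154 in WT and 1251, 1816 and 1325 in DKO skin. All DKO values were above WT, but the log2 fold change was only 0.41 ± 0.16 (edgeR adjusted p = 0.554). *Lce1b* had 627, 688 and 737 in WT and 766, 1469 and 811 in DKO skin. *Lce1d* had 777, 736 and 809 in WT and 1019, 1549 and 1020 in DKO skin. Both lay wholly above WT, at log2 fold changes of 0.57 ± 0.24 and 0.63 ± 0.18 (edgeR adjusted p = 0.612 and 0.342). *Lce1f* had 555, 537 and 712 in WT and 885, 1049 and 810 in DKO skin. *Lce1i* had 436, 429 and 489 in WT and 709, 730 and 551 in DKO skin. *Lce1k* had 177, 188 and 173 in WT and 319, 274 and 241 in DKO skin. None of these 3 overlapped either, at 0.61 ± 0.16, 0.55 ± 0.15 and 0.63 ± 0.17 (edgeR adjusted p = 0.324, 0.342 and 0.302).

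*Lce1a1* had 923, 824 and 1237 in WT and 1132, 1777 and 1264 in DKO skin. *Lce1a2* had 702, 525 and 760 in WT and 723, 1378 and 816 in DKO skin. Both overlapped because WT replicate 3 was above DKO replicate 1, at 0.48 ± 0.21 and 0.56 ± 0.25 (edgeR adjusted p = 0.637 and 0.660), although their unadjusted p was under 0.05. *Lce1l* was at 0.69 and overlapped, with 234, 539 and 217 in DKO against 189, 175 and 251 in WT skin. In these *Lce1* genes too DKO replicate 2 was highest, except in *Lce1k*.

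*Lce1m* was the only *Lce1* gene with a log2 fold change below 0. It had normalized counts of 840, 725 and 882 in WT and 521, 792 and 551 in DKO skin. Only DKO replicate 2 fell within the WT range, and the log2 fold change was -0.39 ± 0.18 (edgeR adjusted p = 0.680). *Lce1m* lies at chr3:93017810-93019060, beyond the *Lce3* genes and next to *Crct1*, while the other 13 lie between 92646535 and 92851286.

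*Lce3* genes are the branch of the family that is known to be induced in injured skin, and they were near the floor here. *Lce3c* was the only one of 6 with enough counts for a test. It had normalized counts of 33.6, 28.0 and 35.9 in WT and 101, 89.4 and 59.7 in DKO skin. The DKO values did not overlap with WT, and the log2 fold change was 1.35 ± 0.28 (edgeR adjusted p = 0.204, DESeq2 adjusted p = 0.0142). *Lce3d* had raw counts of 9, 12 and 0 in WT and 4, 7 and 8 in DKO libraries, *Lce3e* had 1 to 5 in WT and 2 to 10 in DKO libraries, *Lce3f* had at most 1, and *Lce3a* and *Lce3b* were at 0 throughout. The sum over the 6 genes, which does not depend on the split of reads between them but would still lack reads discarded as ambiguous, was 3.16, 2.63 and 2.48 CPM in WT and 7.97, 6.54 and 4.79 CPM in DKO skin, with no overlap. *Lce6a* had 116, 132 and 128 in WT and 155, 143 and 173 in DKO skin. Its groups did not overlap, at a log2 fold change of 0.32 ± 0.18 (edgeR adjusted p = 0.788).

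**Figure D2:**
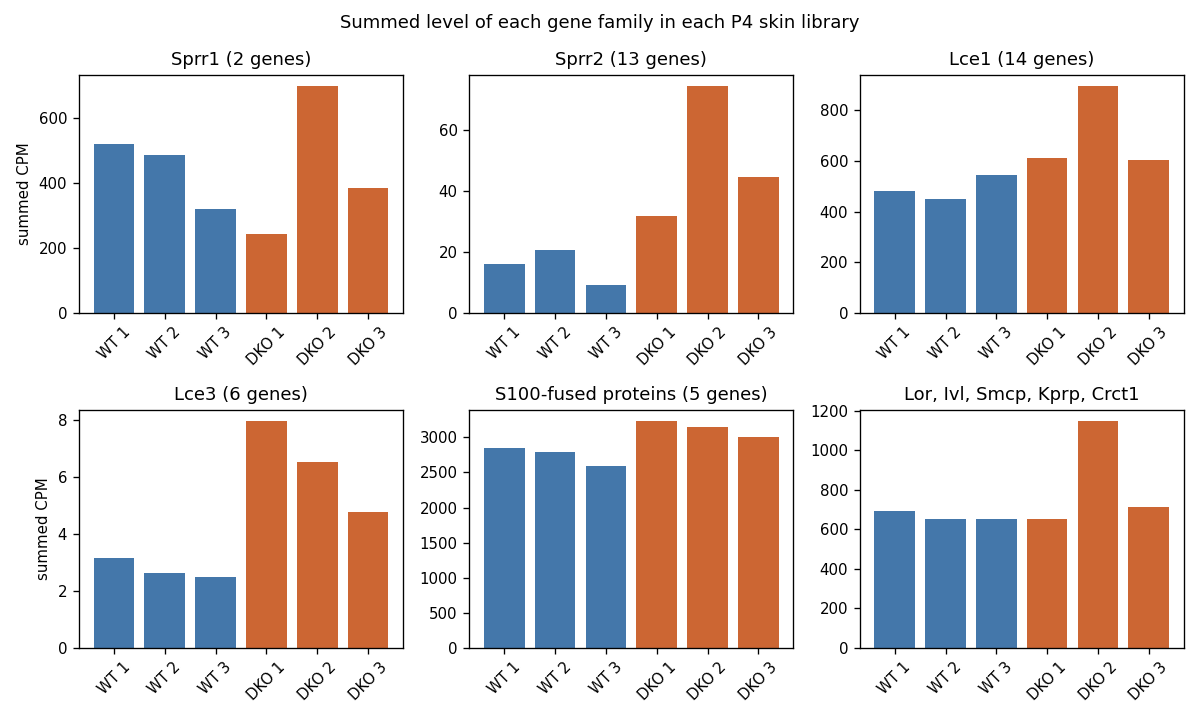
Summed CPM (vertical axes, from 0) of each gene family in each library, with WT in blue and DKO in orange. The DKO bars of *Sprr2*, *Lce1*, *Lce3* and the S100-fused family are all above the WT bars, while those of *Sprr1* and of the 5 other genes overlap with WT.

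The S100-fused genes encode large granule proteins with a calcium-binding start and long repeats. *Rptn* (repetin), the least abundant per length, had normalized counts of 250, 177 and 102 in WT and 1070, 340 and 293 in DKO skin. Every DKO value was above every WT value, but replicate 1 stood far above the other 2. Its log2 fold change was 1.69 ± 0.49 (edgeR adjusted p = 0.354, DESeq2 adjusted p = 0.424), and without DKO replicate 1 it was 0.83.

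*Flg* (filaggrin) had normalized counts of 27130, 27630 and 24190 in WT and 31110, 35490 and 30420 in DKO skin. The groups did not overlap, with a 1.23-fold difference (log2 0.30 ± 0.14, edgeR adjusted p = 0.703). *Hrnr* (hornerin) had 5659, 5061 and 5496 in WT and 8909, 3688 and 6429 in DKO skin. Its DKO values ran from below to above WT, at a log2 fold change of 0.23 ± 0.26 (edgeR adjusted p = 0.939).

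*Crnn* (cornulin) had 2115, 1840 and 1892 in WT and 731, 1704 and 1317 in DKO skin. All of its DKO values were below WT, and the log2 fold change was -0.64 ± 0.25 (edgeR adjusted p = 0.574). *Flg2* (filaggrin 2) had 8171, 7708 and 7588 in WT and 7251, 6584 and 7141 in DKO skin. It was likewise below WT in each DKO mouse, at a log2 fold change of -0.16 ± 0.12 (edgeR adjusted p = 0.894). The family thus held genes in both directions, and its summed level was 2745 ± 141 CPM in WT and 3129 ± 116 CPM in DKO skin (SD, n = 3), most of it *Flg*.

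*Kprp*, a proline-rich protein of keratinocytes whose gene sits within the *Lce1* run, had normalized counts of 4299, 4056 and 4047 in WT and 5605, 6742 and 5250 in DKO skin. Its groups did not overlap, and the log2 fold change was 0.50 ± 0.13 (edgeR adjusted p = 0.302). *Lor* (loricrin), the main protein of the mature envelope, had 2409, 2107 and 3359 in WT and 2105, 6361 and 2913 in DKO skin. Only replicate 2 of DKO was above the WT range. The log2 fold change of *Lor*, 0.53 ± 0.35 (edgeR adjusted p = 0.865), was -0.06 without that library.

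*Ivl* (involucrin), the early scaffold of the envelope, had 1009, 1099 and 913 in WT and 638, 1357 and 840 in DKO skin. The values overlapped, at a log2 fold change of -0.09 ± 0.24 (edgeR adjusted p = 0.973). *Crct1* had 2745, 2576 and 1574 in WT and 1530, 2960 and 1787 in DKO skin, also with overlap, at -0.14 ± 0.27 (edgeR adjusted p = 0.961). *Smcp*, a gene of the complex known for its protein in sperm mitochondria, had 62.2, 51.8 and 41.1 in WT and 27.6, 19.9 and 42.8 in DKO skin. DKO replicate 3 lay within the WT range, and the log2 fold change was -0.76 ± 0.34 (edgeR adjusted p = 0.661).

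In the order of the complex, the longest row of tested cornified envelope genes above 0 ran from *Lce6a* to *Lce3c* (chr3:92620081-92945733, 325.7 kb). It was picked for this direction and held 16 genes, with log2 fold changes from 0.32 to 1.35. Of these, 14 had an unadjusted p under 0.05, against 4.96% of all tested genes that were higher at this p. *Gm4202*, a tested gene of another kind inside this stretch, was at -0.006. *Sprr2a3*, *Sprr2h* and *Sprr1b*, which precede this run, were followed by *Sprr1a*, *Sprr4* and *Ivl*, none of which had an unadjusted p under 0.05. *Smcp*, which lies between *Ivl* and the run, was at -0.76, with an unadjusted edgeR p of 0.0492. At the far end *Flg* and *Rptn* also lay above WT, beyond *Crct1*, *Lce1m*, *Crnn* and *Flg2*, which were below 0. Whether genes in the same direction were neighbours more often than others was not tested. Of the 33 other genes between *Lor* and *Rptn*, 10 were tested, and their median log2 fold change was -0.34. *2310050C09Rik*, between *Lce1l* and *Lce3a*, had 670, 618 and 765 in WT and 936, 1428 and 976 in DKO skin, at 0.70 ± 0.18 (edgeR adjusted p = 0.300). It was the only one of the 10 higher in DKO skin at an unadjusted p under 0.05. *Prr9*, next to *Lor*, had 12260, 10730 and 10010 in WT and 4504, 8907 and 8250 in DKO skin, at -0.61 ± 0.23 (edgeR adjusted p = 0.545).

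**Figure D3:**
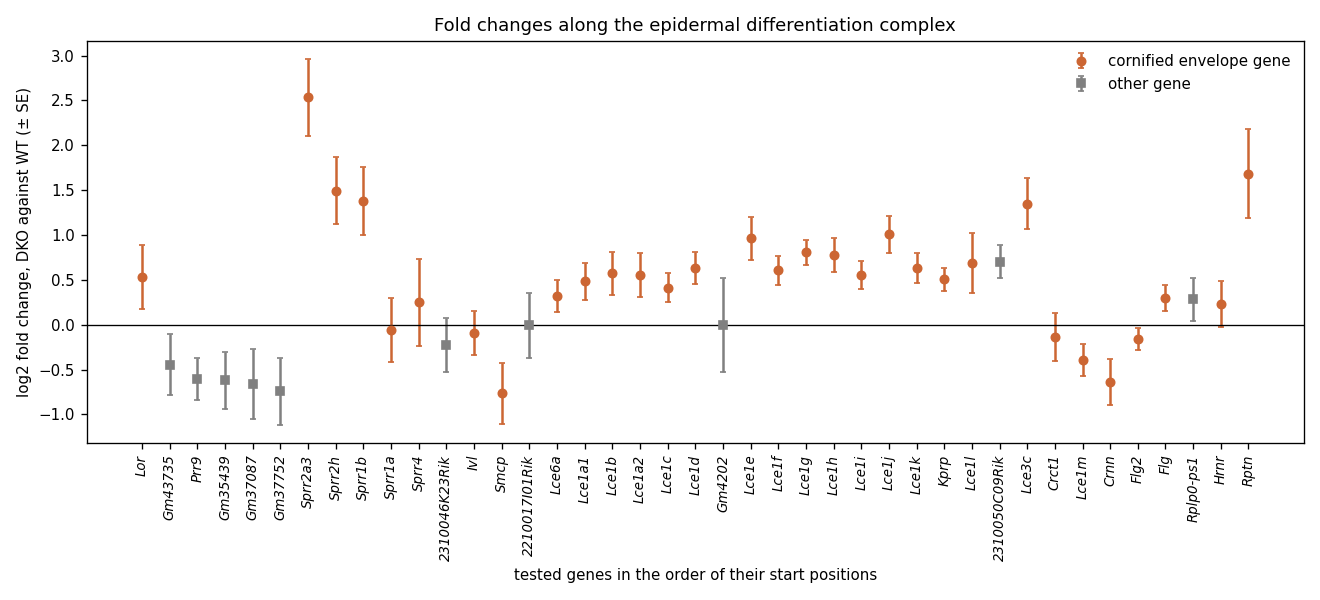
Log2 fold change of DKO against WT (vertical axis, points with SE) of the 41 tested genes of the complex in the order of their start positions (horizontal axis, not to scale), with cornified envelope genes in orange and the 10 other genes in grey. The run from *Lce6a* to *Lce3c* holds 16 orange points above 0, while *Crct1*, *Lce1m*, *Crnn* and *Flg2*, which follow, are below 0.

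Genes with and without the AP-1 motif were found on both sides of 0. The 9 tested genes with TGANTCA in their promoter, among them *Sprr1b*, *Sprr2h* and *Rptn* but also *Sprr1a*, *Ivl* and *Crnn*, had a median log2 fold change of 0.30, and 5 of them were above 0. The 19 tested genes without it, most of them *Lce1* but also *Sprr2a3*, had a median of 0.57, and 17 were above 0. The other 3 tested genes, *Lce1f*, *Kprp* and *Crct1*, had no promoter among those searched. No test was run on this split.

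Levels were compared between genes as TMM-scaled CPM per kb of counted exon, so their order depends on the annotated lengths. The counted length of *Sprr4*, 231 bases, equals its coding sequence, while *Sprr2a3* has 2883 counted and 252 coding bases. In WT skin *Sprr1a* was highest, at 535 ± 129, followed by *Sprr4* at 239 ± 132 and *Crct1* at 191 ± 52.6 (SD, n = 3). *Sprr4* and *Crct1* did not differ by more than their spread. *Lce1c* (100 ± 5.58), *Kprp* (99.8 ± 3.46), *Lor* (97.2 ± 24.2), *Lce1a1* (93.0 ± 20.1) and *Flg* (92.1 ± 6.52) came next and did not differ from their neighbours in this order by more than their spread. The genes with the largest fold changes were low on this scale, with WT levels of 0.973 ± 0.487 for *Sprr2a3*, 2.80 ± 1.18 for *Rptn*, 3.78 ± 0.474 for *Lce3c*, 12.1 ± 5.14 for *Sprr1b* and 14.7 ± 5.58 for *Sprr2h*. In DKO skin these became 5.65 ± 2.61, 9.02 ± 6.93, 9.69 ± 2.48, 31.5 ± 12.6 and 41.4 ± 20.4, still below *Sprr1a* at 515 ± 291.

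The libraries did not contribute equally. DKO replicate 2 held the highest value of 21 of the 31 genes, DKO replicate 1 that of 5, and WT replicate 1 that of 3. The median log2 deviation of the 31 genes from their mean was -0.29, -0.27 and -0.21 in the 3 WT mice, against 0.10, 0.56 and 0.07 in the DKO mice in the order of their replicate numbers. Without DKO replicate 2 the median log2 fold change was 0.39 for the 31 genes and 0.003 for all tested genes. Of the 31, 17 were then higher at an unadjusted p under 0.05, and the matching share of all genes is not given here. DKO replicate 1 was lowest of the 3 DKO libraries in *Sprr1a*, *Sprr4*, *Ivl*, *Crct1*, *Lor* and *Crnn*, and highest in *Sprr1b*, *Lce3c*, *Hrnr* and *Rptn*. WT replicate 3 and DKO replicate 1 share a number in their sample titles, and the other 4 mice share another. Within that pair and within the other 4 mice, the log2 ratios of DKO to WT were 2.33 and 2.58 for *Sprr2a3*, 1.64 and 1.46 for *Sprr2h* and 1.49 and 1.27 for *Lce3c*. They were 2.77 and 0.78 for *Sprr1b* and 3.39 and 0.57 for *Rptn*, both far larger in the pair. For *Lce1g* they were 0.77 and 0.82, and for *Lce1a1* they were -0.13 and 0.80.

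**Figure D4:**
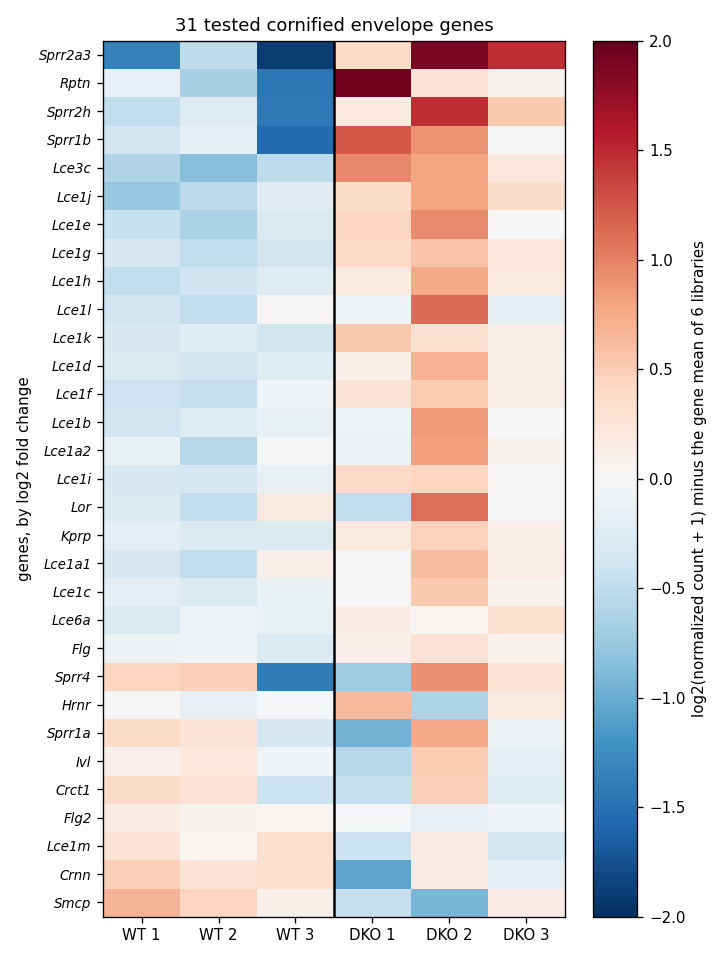
Heat map of the 31 tested genes (rows, ordered by log2 fold change) in the 6 libraries (columns), as log2(normalized count + 1) minus the mean of the gene over the libraries, with colours capped at 2. DKO replicate 2 is red in most rows, and the rows from *Sprr4* down to *Smcp* show no common difference between WT and DKO, apart from lower values in the last rows.

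Genes that act with the envelope proteins differed in direction from list to list. Of 19 genes for cross-linking and scaffold, 5 were above 0 and 14 below, where 52.9% of all tested genes were above 0. Their median was -0.08. Among them *Calm4*, a calmodulin-like protein of the epidermis, was the only one with an unadjusted p under 0.05. *Calm4* had 2200, 1914 and 1484 in WT and 2906, 2956 and 2513 in DKO skin, at a log2 fold change of 0.58 ± 0.16 (edgeR adjusted p = 0.338). *Tgm1*, the main transglutaminase of the envelope, had 1746, 1657 and 1549 in WT and 1079, 2198 and 1353 in DKO skin, with overlap. It was at -0.10 ± 0.23 (edgeR adjusted p = 0.968). None of the 14 tested genes for filaggrin processing passed edgeR's thresholds, and their median was 0.06. *Klk5*, a protease of the stratum corneum, had 747, 779 and 819 in WT and 392, 635 and 434 in DKO skin, below WT throughout, at -0.68 ± 0.19 (edgeR adjusted p = 0.339).

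Among 14 genes for envelope lipids 7 were above 0 and 7 below. *Elovl4*, which lengthens the fatty acids of epidermal ceramides, had 10450, 10220 and 8209 in WT and 4677, 6036 and 5860 in DKO skin. *Elovl4* was below WT in each DKO mouse, at -0.80 ± 0.15 (edgeR adjusted p = 0.168, DESeq2 adjusted p = 0.00121). *Fa2h*, which hydroxylates fatty acids and is also active in sebaceous glands, was at -1.42 ± 0.35 (edgeR adjusted p = 0.281), and DESeq2 passed it as lower, with an adjusted p of 0.00207. *Alox12b*, a lipoxygenase of the epidermis, had 338, 342 and 455 in WT and 589, 541 and 517 in DKO skin, at 0.53 ± 0.16 (edgeR adjusted p = 0.384).

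Suprabasal keratins, the filaments of the cells that make the envelope, were higher in sum, at 3865 to 4254 CPM in WT and 5316 to 6677 CPM in DKO skin. *Krt1* had 25750, 25700 and 29330 in WT and 46120, 54200 and 39450 in DKO skin, with no overlap, at 0.79 ± 0.16 (edgeR adjusted p = 0.202, DESeq2 adjusted p = 9.28e-04). Its partner *Krt10* was at 0.48 ± 0.14 (edgeR adjusted p = 0.352) and also lay above WT, whereas *Krt77* was at -0.79 ± 0.21 (edgeR adjusted p = 0.303). Of 34 transcription factors of late differentiation, none passed, with a median of 0.06. The 3 with the smallest p were *Stat3*, *Satb1* and *Nfe2l2*, at 0.36, 0.36 and 0.37, each with an edgeR adjusted p of 0.458 or more. Among 17 tested keratinocyte stress genes, 13 were above 0 and 4 below, with a median of 0.51. The 21 genes of that list summed to 1419 to 1785 CPM in WT and 1442 to 2501 CPM in DKO skin and overlapped. Of the stress genes, only *Stfa2* and *Krt16* passed in edgeR. *Stfa2*, a cystatin, rose by 3.25 ± 0.16 on the log2 scale (edgeR adjusted p = 5.56e-05), and *Krt16*, a keratin of wounded skin, rose by 3.56 ± 0.27 (edgeR adjusted p = 0.00148).

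Genes of other cell types were read in the same fit, and none of the muscle, hair follicle or sebaceous gland genes passed in edgeR. Of 20 skeletal muscle genes 19 were above 0, their median log2 fold change was 1.06, and their sum was 6291 to 7204 CPM in WT and 10170 to 21630 CPM in DKO skin, highest in DKO replicate 1. Of 21 tested hair follicle genes 19 were below 0, with a median of -0.33 and a sum of 10510 to 11560 CPM in WT and 4208 to 11380 CPM in DKO skin, which overlap. Of 11 sebaceous gland genes 9 were below 0, with a median of -0.89. Basal keratinocyte genes summed to 3479 to 3639 CPM in WT and 3244 to 4860 CPM in DKO skin and overlapped. In such bulk samples fewer or more cells of a type and less or more RNA per cell cannot be told apart. With the muscle genes left out of the library sizes, the median was 0.53 for the 31 genes and 0.003 for all tested genes. Of the 31, 18 were still higher at an unadjusted p under 0.05, and the matching share of all genes is not given here. With levels taken relative to 16 basal and suprabasal keratinocyte genes, the median of all tested genes was -0.36 and that of the 31 genes was 0.14. The 16 genes include the suprabasal keratins, whose sum was higher in DKO skin. On this keratinocyte scale 9 of the 31 were higher and 6 lower at an unadjusted p under 0.05, and *Flg*, *Hrnr*, *Lce6a* and *Sprr4* changed sign. Of all tested genes 7 passed edgeR's thresholds as higher and 57 as lower on it, and their shares at an unadjusted p are not given here. The log2 fold changes of *Lce1c*, *Lce1a1*, *Lce1a2* and *Lce1b* were then 0.017, 0.087, 0.14 and 0.15, and *Lce1j* was highest, at 0.62, of the 12 *Lce1* genes with an unadjusted p under 0.05 before. The part of the cell makeup in the other differences was not tested.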

How the data were processed

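Total RNA of the P4 skin was depleted of rRNA, and libraries were made with the NEBNext Ultra II kit and sequenced as 150-base paired ends. Per the labels, the authors trimmed reads with Trimmomatic 0.36, mapped them with STAR 2.5.2b and counted them with featureCounts of Subread 1.5.2. The deposited values are whole-number counts per gene, not normalized, on a GRCm38 annotation. The strand setting of the counting and its treatment of reads from near-identical genes are not given in the sources used here. The 7 epidermis libraries of the series hold a count of 0 for each gene in the files used here and gave no result.

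Counts were filtered with filterByExpr, normalized by TMM and compared with edgeR 4.0.16 (R 4.3.3, quasi-likelihood F test, Benjamini-Hochberg adjustment over 20168 genes), with DESeq2 1.42.0 as an alternative. Both were first tested on simulated data. The SE of a fold change was computed from its F value. Genes passed at an adjusted p under 0.05 with a log2 fold change beyond 1 either way. Alternatives were RLE size factors, total counts, library sizes without muscle genes, scaling to keratinocyte transcripts, other filters, the number in the sample titles as a block, the 4 libraries that share such a number, paralogs summed, and each replicate left out. The genes, lists and motifs were chosen with earlier results of these data known. Named with full values were genes that passed in either tool or had an unadjusted p under 0.05, the 10 outside the *Sprr* and *Lce* families, the highest per length in each family, and the 3 smallest p-values of other lists. *Prr9*, *2310050C09Rik* and *Tgm1*, the sequences printed and the letters TATAAA and ATAAAAG were chosen after their values were seen. Pairwise identity was taken from global alignments of coding sequences.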

Additional observations from a re-analysis of the deposited data

How the results depend on the processing

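*Sprr2a3*, *Sprr2h*, *Sprr1b*, *Lce3c*, *Rptn* and the 12 *Lce1* genes with an unadjusted p under 0.05 had a log2 fold change above 0 in each of the alternatives run, although scaling to keratinocyte transcripts left *Lce1c*, *Lce1a1*, *Lce1a2* and *Lce1b* at 0.017, 0.087, 0.14 and 0.15. The number of genes that passed varied. Against 14 genes in all and 0 cornified envelope genes, DESeq2 passed 154 and 4, edgeR without a filter on low counts 210 and 5 (*Rptn* in addition), the 4 libraries that share a title number 9 and 1 (*Sprr2a3*), total counts 22 in all, and scaling to keratinocyte transcripts 64 in all. Leaving out 1 library gave 2 to 36 in all and 0 to 1 of the cornified envelope genes, the 1 being *Sprr2a3* without DKO replicate 1. WT and DKO libraries share 2 numbers in their titles, whose meaning the labels do not give. With that number as a replicate block, 35 genes passed and 1 of the cornified envelope genes, *Sprr2a3* (edgeR adjusted p = 0.00948). The 5 WT-DKO pairs of the same number had correlations of their deviations from -0.172 to 0.523, with 3 of them at 0.367 or more, and the 4 pairs of different numbers from -0.38 to -0.109. Each library correlated best with one of its own number. Deviations from a group mean cancel within the group, so each library must correlate above 0 with some libraries and below 0 with others. These correlations therefore cannot decide what the number marks.

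Scaled to keratinocyte transcripts, 9 cornified envelope genes were higher and 6 lower at an unadjusted p under 0.05, 8 lay wholly above and 4 wholly below WT, and the median was 0.14. The median of all tested genes was then -0.36, and the matching shares over all genes are not given here. With the 4 libraries alone 1 was lower. Leaving out 1 library gave 0 to 3 lower and 2 to 4 wholly below WT. The matching shares of all tested genes in these smaller sets of libraries are not given here. Groups of fewer libraries also separate more easily, so these counts cannot be set against the shares from 6 libraries. On the log2 scale signs reversed for *Flg* (-0.087), *Hrnr* (-0.10), *Lce6a* (-0.039) and *Sprr4* (-0.19) when scaled to keratinocyte transcripts, and for *Ivl* (0.036), *Hrnr* (-0.095) and *Sprr1a* (0.060) in the 4 libraries. Leaving out 1 library gave -0.060 to 0.80 for *Lor* (below 0 without DKO replicate 2), -0.44 to 0.11 for *Ivl*, -0.47 to 0.027 for *Crct1* and -0.10 to 0.51 for *Hrnr* (reversed without DKO replicate 1), -0.58 to 0.25 for *Sprr1a* (reversed without DKO replicates 1 or 3 or WT replicate 1) and -0.19 to 0.55 for *Sprr4* (reversed without DKO replicate 2 or WT replicate 3). None of these had passed, and the cause was not tested. Depth limits the 17 untested genes, mostly *Sprr2* and *Lce3*.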

Other observations

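The same fit also covered genes of the cells around the epidermis. In skeletal muscle genes, log2 fold changes of DKO against WT were 1.23 ± 0.23 (SE) for *Tnni2*, 1.30 ± 0.24 for *Des* and 1.14 ± 0.22 for *Acta1*, each with DKO values above WT. In sebaceous gland genes they were -1.31 ± 0.19 for *Scd1*, -1.72 ± 0.26 for *Far2* and -2.37 ± 0.48 for *Scd3*, each with DKO values below WT. In keratins of the hair follicle's inner root sheath they were -0.73 ± 0.24 for *Krt71*, -0.50 ± 0.20 for *Krt73* and -0.53 ± 0.22 for *Krt28*, again below WT without overlap. By edgeR none of these passed, with adjusted p-values from 0.0617 to 0.631, while DESeq2, which passed 0.783% of all genes, passed 11 of 20 muscle, 5 of 11 sebaceous gland and 0 of 21 hair follicle genes. *Krt6b*, a wound keratin, had normalized counts of 14.3, 30.6 and 16.3 in WT and 586, 124 and 109 in DKO skin, at 3.71 ± 0.69 (edgeR adjusted p = 0.146, DESeq2 adjusted p = 0.00337, passed by DESeq2), with DKO replicate 1 highest as in *Rptn*.

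Of 9 basal keratinocyte genes 8 were above 0 and 1 below, with a median log2 fold change of 0.11. The 1 below was *Krt15*, at -0.60 ± 0.21 with DKO values below WT, while *Krt14* (0.39 ± 0.23) and *Itga6* (0.25 ± 0.13) overlapped. The adhesion gene *Dsg1a* was at -0.26 ± 0.13, *Tchh*, a hair follicle relative of filaggrin, at -0.66 ± 0.31, the protease gene *Furin* at 0.53 ± 0.20 and *Padi4* at 0.71 ± 0.35. *Retn*, *Cfd* and *Lep* of fat were at 1.42, 1.09 and -0.74, *Pdgfra*, *Fbn1* and *Col3a1* of fibroblasts at 0.43, 0.45 and 0.31, *C1qa*, *Csf3r* and *Cd3e* of immune cells at 0.59, 0.91 and -1.02, *Pecam1*, *Vwf* and *Cldn5* of endothelium at 0.34, 0.33 and 0.48, and *Mitf*, *Sox10* and *Slc45a2* of melanocytes at -0.22, 0.43 and -0.26. None of these passed in edgeR, and DESeq2 passed *Retn* and *Cfd*.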
